A study of Mus musculus with 19 samples.

Results

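The membrane protein genes of the lens described here were followed across 6 groups of mouse arrays: the gap junction genes Gja1, Gja3 and Gje1, the water channel gene Mip and the fibre membrane protein gene Lim2. They were listed by name for their place in the membrane of lens cells, and they are 5 of the 18194 genes that at least 1 probe set of the array names alone. All animals were wild-type ICR mice, with no transgene or treatment, and tissue was dissected by hand from embryos timed by the day of the plug. The lens arrays cover embryonic days E10.5, E11.5 and E12.5 with 3 arrays each, set against 4 arrays of whole embryo spanning E10.5 to E12.5. The tooth arrays cover E13.5 tooth germ with 3 arrays, set against 3 arrays of whole embryo spanning E11.5 to E13.5. The labels give no stage for a single whole-embryo array, do not say whether eyes or teeth were removed from it, and do not say how many embryos make up a sample. The design text gives the aim as listing genes that lens or tooth expresses above the body, for work on cataract candidates.

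The lens is an avascular organ, and its cells exchange ions, water and small metabolites through channels between neighbours. Connexins assemble as hexamers into half-channels that dock across the gap between cells. Epithelial cells on the front of the lens are known for the connexin made from Gja1, while the elongated fibre cells behind them use fibre connexins such as that of Gja3, the lens aquaporin made from Mip and the membrane protein made from Lim2. Primary fibres form in the period sampled here, when cells of the back wall of the lens vesicle lengthen and fill its cavity.

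All 5 genes lie at known positions of assembly GRCm38.p6 in RefSeq. Gja1 is at chr10:56377300-56390419 and Gje1 at chr10:14715626-14718214, and Mip lies on the same chromosome at chr10:128225810-128231812. Gja3 is at chr14:57034460-57058030 and Lim2 at chr7:43430099-43435996. The platform annotation gives 12 probe sets that name only 1 of them: 6 for Gja1, 2 each for Gja3 and Mip, and 1 each for Gje1 and Lim2. The probe set with the highest mean represents a gene below.

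The 250 bases before the annotated start are shown for the members with an entry in the RefSeq promoter table. The strands are those of the genes, with the windows at chr10:56377050-56377299 for Gja1, chr14:57058031-57058280 for Gja3 (minus strand), chr10:128225560-128225809 for Mip and chr7:43429849-43430098 for Lim2. Capitals mark matches to 5 motifs searched on both strands: the Maf half-site TGCTGA, the AP-1 site TGAGTCA, the heat shock element GAANNTTC, the TATA box TATAAA and the GC box GGGCGG.
Gja1: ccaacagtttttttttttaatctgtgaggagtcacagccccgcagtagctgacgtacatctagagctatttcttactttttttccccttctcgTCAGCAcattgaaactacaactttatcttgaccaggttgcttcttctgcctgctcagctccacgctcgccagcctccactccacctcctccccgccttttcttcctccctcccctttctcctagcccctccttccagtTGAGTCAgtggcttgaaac
Gja3: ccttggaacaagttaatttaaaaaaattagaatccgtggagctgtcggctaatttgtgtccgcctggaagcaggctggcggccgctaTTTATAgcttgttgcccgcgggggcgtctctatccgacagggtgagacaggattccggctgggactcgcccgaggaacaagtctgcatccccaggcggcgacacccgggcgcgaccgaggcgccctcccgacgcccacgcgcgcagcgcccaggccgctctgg
Mip: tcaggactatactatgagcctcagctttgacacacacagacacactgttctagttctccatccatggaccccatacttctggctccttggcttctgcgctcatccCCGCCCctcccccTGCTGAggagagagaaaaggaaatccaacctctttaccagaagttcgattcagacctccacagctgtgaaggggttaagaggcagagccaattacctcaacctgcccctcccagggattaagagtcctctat
Lim2: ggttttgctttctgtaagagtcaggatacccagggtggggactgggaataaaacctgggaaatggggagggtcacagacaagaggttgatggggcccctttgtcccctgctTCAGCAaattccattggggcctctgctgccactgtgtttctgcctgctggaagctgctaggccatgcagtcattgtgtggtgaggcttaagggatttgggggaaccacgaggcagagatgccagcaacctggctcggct
The Maf half-site, known from crystallin promoters bound by Maf proteins, stands in the windows of Gja1 (minus strand, 157 bases before the start), Mip (plus strand, 132) and Lim2 (minus strand, 139), and 16.1% of 32851 promoters hold it in a window of this length. Gja1 also holds the AP-1 site at 19 bases before the start, which 4.5% of promoters hold. Gja3 holds no Maf half-site. It holds the TATA letters on the minus strand (163 bases, 12.4% of promoters), and Mip holds the GC box letters on the minus strand (145 bases, 32.7%). The heat shock element, in 6.7% of promoters, was in none of the 4 windows. TGCTGA and TGAGTCA can overlap by shared letters, and each match describes the letters only.

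Values are log2 signals, with the SD over the arrays of a group where a mean is given. A difference is also on the log2 scale and carries the standard error (SE) of the model. The model takes a single spread per gene from all 6 groups, so scatter in any group enters the SE of comparisons without it. Genes were tested where the probe set passed 5.46, the median of all values, on at least 3 arrays. That held for 13320 genes and all 5 members, on 19 arrays for Gja1 and Lim2, 9 for Gja3 and Mip and 7 for Gje1. The arrays that passed for Gja3, Mip and Gje1 were all lens arrays. These genes entered the test through lens alone, so their place above body is not independent of the filter. A call is a Benjamini-Hochberg adjusted p under 0.05 over the 13320 genes in limma's two-sided moderated test. Probe sets differ in how brightly they bind, so levels are compared between groups and never between genes. As a guide to background, 95% of the readings of 27 target-free control probe sets lay at or under 4.71. In bulk tissue, fewer cells of a type and less RNA per cell cannot be told apart.

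The labels were checked against defining markers. The summed linear signal of 7 lens markers (Cryaa, Cryab, Cryba1, Crybb1, Crygb, Foxe3 and Pitx3) was 15409.2 to 85661.3 on lens arrays and 437.5 to 564.8 on their body arrays. A set of 6 tooth markers (Shh, Krt14, Msx1, Pax9, Barx1 and Lhx8) summed to 5450.6 to 5702.2 on tooth germ arrays and 1285.0 to 1398.3 on their bodies. Among them Shh went the other way and was not called (-0.935 ± 0.38, adjusted p = 0.053). The others were called higher than body, from 0.35 for Pax9 to 3.56 for Krt14. Muscle and heart markers summed to 124.4 to 192.8 on lens arrays against 10497.3 to 12898.7 on body arrays. Erythroid markers were not low in this way, at 15121.6 to 31208.1 on lens and 33638.3 to 36984.6 on body arrays. Endothelial markers summed to 868.3 to 1223.5 on lens and 1260.3 to 1362.1 on body arrays. Blood and vessel markers were thus present in the lens samples, and their part in the values of the members was not tested. In the lens series 2 arrays stand apart: E10.5 replicate 3 had a lens marker sum of 74823.9, against 15590.6 and 15409.2 on the other E10.5 arrays, and E11.5 replicate 1 had 41093.4, against 61466.1 and 56617.9. The lens series also falls into 2 sets by 7 bacterial control probe sets, 7 arrays with a log2 mean of 9.96 or less (low) and 6 that lie at least 1.04 above them (high). E10.5 replicate 3 is the one E10.5 array in the low set, and replicate 1 is the only array in the high set at E11.5 and again at E12.5. A fit within a set also holds the 6 tooth-series arrays, and a lone array has no spread of its own there, so the fit takes its spread from the remaining groups. Values within a set that rest on a lone array are therefore descriptions and not calls, though the tallies of settings below include them. Results that rest on these arrays are given with and without them.

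**Figure D1:**
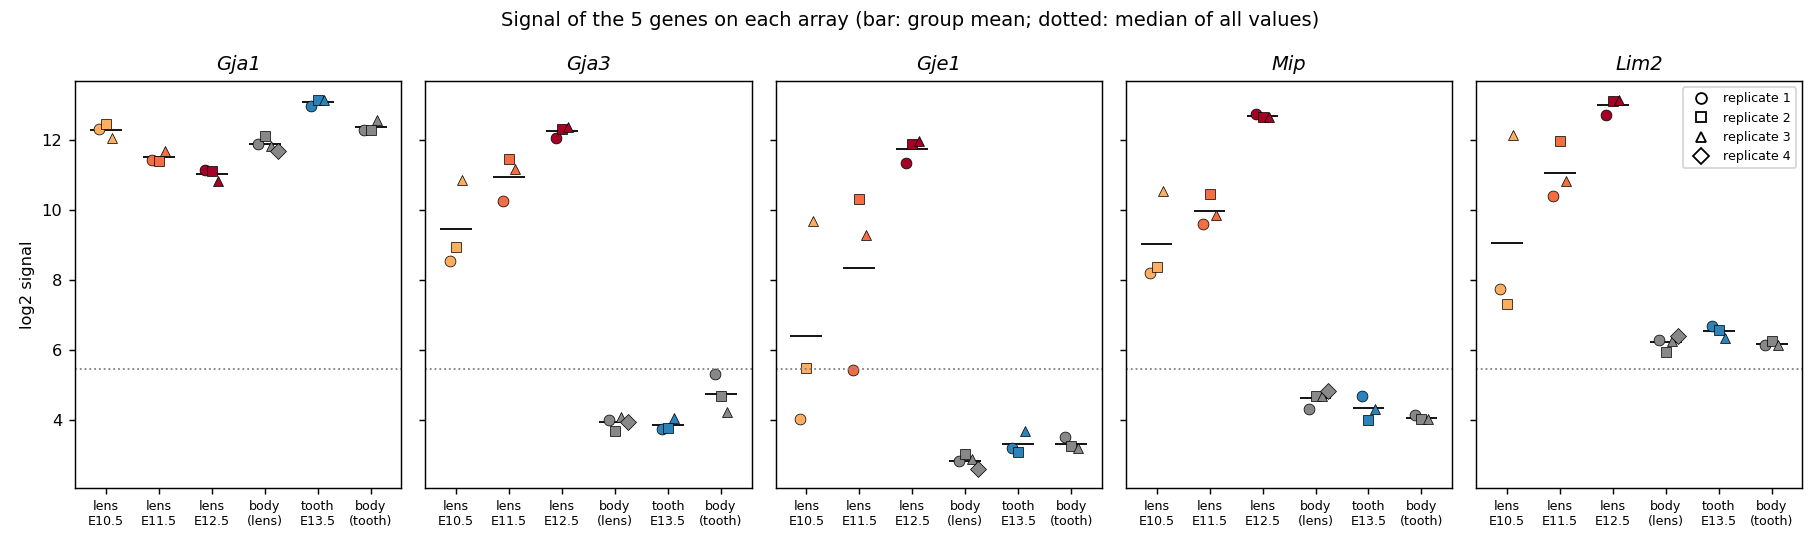
Log2 signal (y axis) of Gja1, Gja3, Gje1, Mip and Lim2 on each array (points, shaped by replicate) with the group mean (bar), by group on the x axis, and the median of all values as a dotted line. Gja3, Gje1, Mip and Lim2 climb over the lens stages and stay low in tooth germ and both bodies, while Gja1, shown by its brightest probe set, is high everywhere, at 13.09 in tooth germ and 11.03 in E12.5 lens.

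The fibre connexin Gja3, in which human mutations cause cataract, was higher in lens than in body at every stage, and higher in E12.5 than in E10.5 lens. It read 8.54, 8.95 and 10.87 on the E10.5 lens arrays, 10.25, 11.45 and 11.16 on those of E11.5 and 12.05, 12.32 and 12.39 on those of E12.5, against 3.99, 3.67, 4.09 and 3.94 on the body arrays. Every lens array at every stage lay above every body array, and all body arrays lay below the no-target level of 4.71. The lens mean exceeded the body mean by 5.53 ± 0.39 at E10.5 (46.2-fold, adjusted p = 1.12e-09), 7.03 ± 0.39 at E11.5 (131-fold, 3.37e-11) and 8.33 ± 0.39 at E12.5 (322-fold, 2.43e-12). Since the body signal is at background, the sizes depend on the floor: with 32 added to each linear value the E12.5 difference was 6.70, and it remained called at 1.02e-11. The second probe set of Gja3, 1422339_at, gave a difference of 5.995 at this stage, also called.

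Gje1 encodes a small, atypical connexin whose mutation in the mouse disturbs primary fibre elongation. Its single probe set read 4.03, 5.47 and 9.68 on the E10.5 lens arrays, 5.41, 10.32 and 9.29 on those of E11.5 and 11.34, 11.89 and 11.96 on those of E12.5. The body arrays read 2.81, 3.02, 2.87 and 2.59. Lens E10.5 replicate 1 (4.03) lay below the no-target level of 4.71, as all body arrays did. Lens E10.5 replicate 2 (5.47) lay just above the filter of 5.46, and E11.5 replicate 1 (5.41) just below it. At the first stages the arrays of a group differed widely, and only at E12.5 did all 3 sit close together. Against body the difference was 3.57 ± 0.99 at E10.5 (adjusted p = 0.00853), 5.52 ± 0.99 at E11.5 (0.000186) and 8.91 ± 0.99 at E12.5 (482-fold, 4.54e-07). The E10.5 call was lost without replicate 3 (1.93, 0.0794) and with 32 added to the linear values (1.91, 0.0698). Within the high control set, which lacks replicate 3 and holds 2 arrays of each group, the difference was 1.81 (0.00115).

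Mip, the water channel that makes up a large part of fibre membrane protein and also helps fibres adhere, was also higher in lens at every stage. It read 8.20, 8.36 and 10.55 on the E10.5 lens arrays, 9.59, 10.47 and 9.87 on those of E11.5 and 12.75, 12.66 and 12.67 on those of E12.5, against 4.32, 4.69, 4.69 and 4.82 in body. Lens and body arrays did not overlap at any stage. The differences were 4.404 ± 0.38 (21.2-fold, adjusted p = 1.48e-08), 5.35 ± 0.38 (40.7-fold, 9.95e-10) and 8.06 ± 0.38 (267-fold, 2.06e-12) from the first stage to the last. The second Mip probe set, 1435447_at, stood higher at E12.5, at 13.25 ± 0.14 in lens and 3.56 ± 0.21 in body, a difference of 9.69.

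Lim2 encodes a relative of the myelin protein PMP22 and of the claudins, in which mutations cause cataract. It read 7.73, 7.32 and 12.15 on the E10.5 lens arrays, 10.39, 11.99 and 10.84 on those of E11.5 and 12.71, 13.12 and 13.16 on those of E12.5. The body arrays read 6.29, 5.95, 6.25 and 6.40. All lens arrays lay above all body arrays, with E10.5 replicate 3 as high as the later stages. The differences were 2.85 ± 0.71 (7.19-fold, adjusted p = 0.00407), 4.85 ± 0.71 (28.8-fold, 2.07e-05) and 6.78 ± 0.71 (110-fold, 2.18e-07). Without replicate 3 the E10.5 difference of Lim2 was 1.31, and its adjusted p 0.00195.

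Gja1 was above body at the first stage and below it at the later ones. It is the most widely used connexin of the body, found in epithelia, heart, bone and the lens epithelium. It read 12.33, 12.46 and 12.06 on the E10.5 lens arrays, 11.43, 11.40 and 11.69 on those of E11.5 and 11.14, 11.10 and 10.84 on those of E12.5, against 11.88, 12.11, 11.84 and 11.69 in body. At E10.5 and E11.5 the lens arrays touch or cross the range of the body arrays, and at E12.5 they all lie below it. The lens minus body difference was 0.40 ± 0.14 at E10.5 (adjusted p = 0.0329), -0.37 ± 0.14 at E11.5 (0.0467) and -0.85 ± 0.14 at E12.5 (0.555 of the body level, 5.64e-05). The calls at the first 2 stages were fragile: the E10.5 call was lost in 12 of 25 alternative settings and the E11.5 call in 16 of 25. The E10.5 call was lost without lens replicate 1 or 2 or body replicate 1, 3 or 4 (adjusted p 0.063 to 0.16), and the E11.5 call without lens replicate 1 or 2 or body replicate 1, 2 or 3 (0.0625 to 0.142). The E12.5 call held in all 25, between -0.91 and -0.48.

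Counted together, 5 of 5 members were higher than body at E10.5, where 13.5% of all tested genes were called higher, and Gja3, Gje1, Mip and Lim2 had every lens array above every body array, as 17.7% of all genes did. At E11.5 it was 4 higher and Gja1 lower, where 14.7% of all genes were called higher and 22.3% lower, and the same 4 lay above every body array, as did 15.4%. At E12.5 it was again 4 higher and Gja1 lower, against 16.6% and 26.7% of all genes, and no lens array overlapped a body array for any member. Of all genes 19.6% lay above and 29.5% below in that way. The 3 comparisons share the same 4 body arrays. Gja3, Gje1 and Mip passed the filter on lens arrays only, so their part in these counts is a description. On lens E10.5 replicate 1, Gje1 itself read below the no-target level. The median difference over all genes was between -0.05 and -0.01 in them. Within the high and within the low control set Gja3, Gje1, Mip and Lim2 were higher in lens at every stage, with E12.5 differences of 8.17, 8.40, 8.06 and 6.61 in the high set (1 lens array against 2 bodies) and 8.39, 9.23, 8.09 and 6.80 in the low set (2 against 2). Gja1 at E12.5 was lower in both sets, at -0.83 and -0.81.

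**Figure D2:**
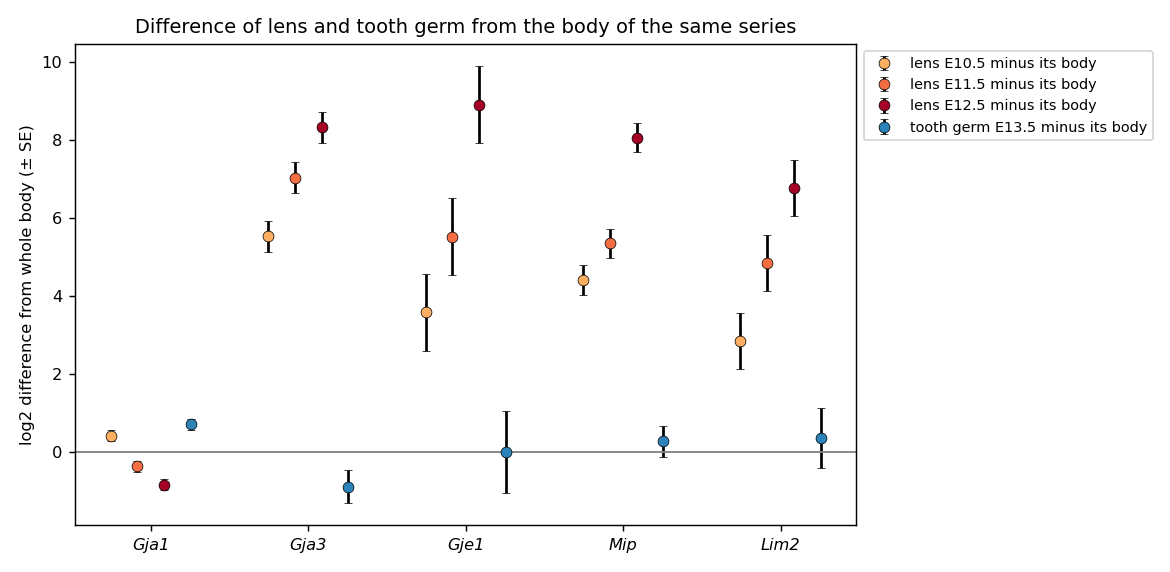
Difference from the matched whole body (log2, y axis; points are fitted differences and bars ± SE) for each member at the lens stages and in tooth germ. The fibre genes lie between 2.85 and 8.91 in lens and between -0.90 and 0.35 in tooth germ, where Gja1 lies at 0.70, while Gja1 falls below 0 in lens by E12.5.

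Over the whole interval, E12.5 minus E10.5, the fibre genes rose and Gja1 fell. Gje1 gained 5.34 ± 1.06 (40.5-fold, adjusted p = 0.00099), Lim2 3.93 ± 0.76 (15.2-fold, 0.000804), Mip 3.66 ± 0.40 (12.6-fold, 2.51e-06) and Gja3 2.80 ± 0.42 (6.96-fold, 6.52e-05). Gja1 changed by -1.25 ± 0.15 (0.419 of its E10.5 level, 6.08e-06), and no E12.5 array overlapped an E10.5 array for any member. Thus 4 were called higher and 1 lower, where 8.91% and 13.2% of all genes were, and 16.9% of all genes had every E12.5 array above and 21.5% every one below. Within the low control set, E10.5 replicate 3 stands alone at its stage. The differences there were 0.99 for Lim2, 2.25 for Gje1, 2.11 for Mip, 1.49 for Gja3 and -1.09 for Gja1. In the high set, with 1 E12.5 array, they were 6.59 for Gje1, 5.18 for Lim2, 4.47 for Mip, 3.30 for Gja3 and -1.25 for Gja1.

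The first day, E11.5 minus E10.5, gave 2 calls among the members. Gja1 was lower, at -0.77 ± 0.15 (0.585 of the E10.5 level, adjusted p = 0.00476), with all E11.5 arrays below all E10.5 arrays, and Gja3 was higher by 1.5025 ± 0.42 (2.83-fold, 0.0493), with overlapping arrays. Of all genes 1.52% were called higher and 2.74% lower, and 10.3% had every E11.5 array below. Gje1 differed by 1.95 ± 1.06 (0.38), Mip by 0.94 ± 0.40 (0.232) and Lim2 by 2.0007 ± 0.76 (0.171), with overlapping arrays each. The Gja1 call was lost with only the arrays of the 2 stages (adjusted p = 0.137) and with probe set 1415801_at (0.107). Within the low control set, which has a lone E10.5 array, the Gja1 difference was -0.51. The Gja3 call was lost in 10 of 19 settings, including without E10.5 replicate 1 (1.05, 0.257) or 2 (1.25, 0.278) and without E11.5 replicate 2 (1.25, 0.163) or 3 (1.40, 0.128).

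The first-day values of the fibre genes moved with E10.5 replicate 3. Without it all 5 members were called: Gja3 rose by 2.21, Gje1 by 3.59 (adjusted p = 0.0164), Mip by 1.70 (0.000141) and Lim2 by 3.54 (9.11e-07). With E11.5 replicate 1 left out as well, a choice made after the values were seen, the rises were 2.56, 5.05, 1.89 and 3.88 in the same order, all called. Leaving out E11.5 replicate 1 alone brought in Gje1 (3.41, 0.035). The share of all genes called is given only for the fit over all arrays, so the counts without these arrays are descriptions. In the high control set, with 1 E11.5 array, the day gave 1.5026 for Gja3, 0.66 for Gje1, 1.32 for Mip and 2.86 for Lim2. In the low set, with replicate 3 as the one E10.5 array, it gave 0.44 for Gja3, 0.12 for Gje1, -0.38 for Mip and -0.74 for Lim2. The lens marker sum of E10.5 replicate 3 was higher in the same way as its fibre genes. Its surface ectoderm marker sum was 6317.9, against 6730.5 and 8397.4 on replicates 1 and 2. The part of either marker set in these differences was not tested.

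The second day, E12.5 minus E11.5, gave 1 call among the members, Mip, by 2.71 ± 0.40 (6.56-fold, adjusted p = 0.000336), where 3.02% of all genes were called higher and 3.45% lower. The Mip call held in all 19 settings, between 2.49 and 3.15. Gje1 differed by 3.39 ± 1.06 (0.0666), Lim2 by 1.93 ± 0.76 (0.169), Gja3 by 1.30 ± 0.42 (0.0787) and Gja1 by -0.48 ± 0.15 (0.0653). The arrays of the 2 stages did not overlap for any of the 5, where 7.90% of all genes had all E12.5 arrays above and 11.2% all below. Same-numbered arrays of these 2 stages deviated together, and with the replicate number as a block 2 members were called, Mip and Gje1 (adjusted p = 0.049). Within the low set, with 2 arrays of each stage, Gje1 (2.12), Mip (2.49), Lim2 (1.73) and Gja3 (1.05) were called higher. The high set holds 1 array of each stage, which differed by 5.93 for Gje1, 3.15 for Mip, 2.32 for Lim2 and 1.80 for Gja3. With the control set as a block all 5 were called, and without E11.5 replicate 2 Gja3 (1.55, 0.0498) and Gje1 (4.38, 0.0201) were called beside Mip. Shares of all genes are given only for the fit over all arrays, so the counts in these other fits are descriptions.

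The test of the second day's change against the first called none of the 5 members (limma, 0.450% of all genes called in either direction). Only Mip had an unadjusted p under 0.05, with a difference of 1.77 ± 0.70 between the 2 steps and an adjusted p of 0.537. The order of the steps turned with the arrays used: for Gje1 the difference was 5.27 in the high set, with 1 array at each later stage, and -3.12 without the 2 arrays that stand apart (0.0135).

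**Figure D3:**
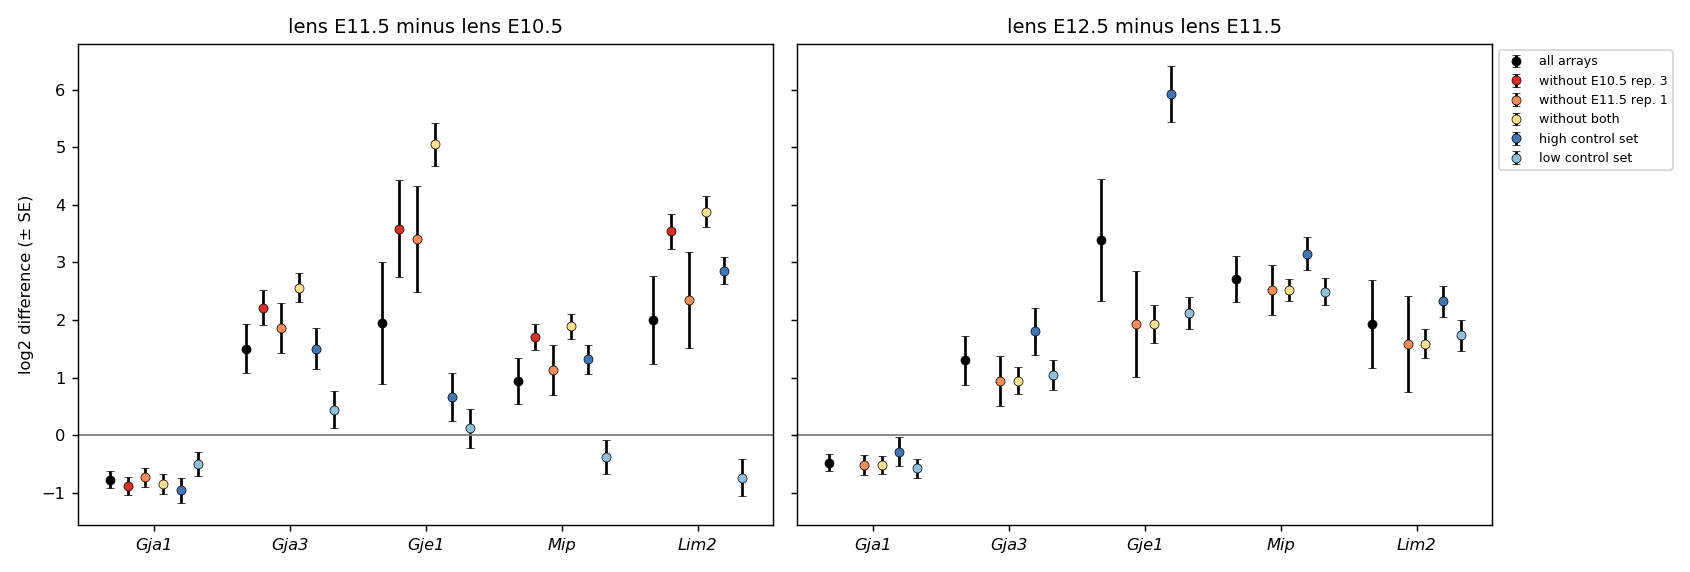
Change per day in lens (log2, y axis) for each member, in all arrays, without the arrays that stand apart and within the high and the low bacterial control set (points are fitted differences, bars ± SE). The first-day values of Gje1, Mip and Lim2 spread from near or below 0 to 5.05, while the second-day value of Mip stays between 2.49 and 3.15.

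Tooth germ, an organ of epithelium and mesenchyme at the bud stage, was the other tissue of the series. Gja1 read 12.97, 13.16 and 13.13 on the tooth germ arrays, against 12.28, 12.30 and 12.58 on their body arrays. All tooth germ arrays lay above all bodies, by 0.70 ± 0.15 (1.63-fold, adjusted p = 0.000981). That was the 1 member called higher, where 16.6% of all genes were. None was called lower by limma, where 25.3% of all genes were, and Gja3 alone was lower at an unadjusted p under 0.05. Over all genes 24.4% had every tooth germ array above every body array and 31.7% every one below.

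Gja3, Gje1 and Mip lay below the no-target level of 4.71 on all tooth germ arrays, and Lim2 lay above the filter in every group. Gja3 read 3.72, 3.75 and 4.04 in tooth germ, against 5.30, 4.68 and 4.23 in body, a difference of -0.90 ± 0.42 that was not called (adjusted p = 0.0949) although the arrays did not overlap. With only the tooth-series arrays in the fit it was called (0.0132). Gje1 read 3.19, 3.07 and 3.68 in tooth germ and 3.50, 3.26 and 3.20 in body (-0.01 ± 1.06, 0.995). Mip read 4.67, 3.99 and 4.31 in tooth germ and 4.15, 4.04 and 4.01 in body (0.26 ± 0.40, 0.629). Lim2 read 6.67, 6.57 and 6.35 in tooth germ, against 6.13, 6.26 and 6.14 in body. All 3 Lim2 readings lay above the bodies, and the difference of 0.35 ± 0.76 was not called (0.737). The SD of Lim2 was 0.17 in tooth germ and 0.07 in its body, against 2.68 in E10.5 lens, and the SE holds the scatter of all groups. No setting called this difference (lowest adjusted p = 0.0618).

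The lens difference at E12.5 was tested against the tooth difference. It was larger by 9.23 ± 0.58 for Gja3 (adjusted p = 5.4e-10), 8.92 ± 1.45 for Gje1 (7.35e-05), 7.80 ± 0.55 for Mip (2.6e-09) and 6.42 ± 1.04 for Lim2 (7.21e-05), and the difference of differences was -1.55 ± 0.21 for Gja1 (7.7e-06). So 4 members were higher and 1 lower, where 19.2% and 20.4% of all genes were called. All 5 calls held in every setting run. Gja3, Gje1 and Mip passed the filter on lens arrays only, so their part in this count and in these calls is a description. The 2 tissues differ in stage and in series, so tissue cannot be told apart from those here.

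By the mean of its brightest probe set Gja1 was ordered tooth germ, tooth-series body, E10.5 lens, lens-series body, E11.5 lens and E12.5 lens. With probe set 1415800_at the order was E10.5 lens (12.18), lens-series body (11.46), E11.5 lens (11.40), tooth germ (11.27), tooth-series body (11.09) and E12.5 lens (10.98), so the order across the 2 series turned with the probe set. In the 2 body groups it read 12.39 ± 0.16 in the tooth series (n = 3) and 11.88 ± 0.18 in the lens series (n = 4), and this difference of 0.51 ± 0.14 (adjusted p = 0.00405) was the 1 member called between bodies, where 31.8% of all genes were called higher and 31.8% lower. The neighbours E10.5 lens (12.28 ± 0.21) and tooth-series body differ by less than their SD. For Gja3, Gje1, Mip and Lim2 the order was E12.5, E11.5, E10.5 lens and then the other groups. In the fit over all 19 arrays no call separated the tooth germ from its body, or the bodies from each other, for these 4 genes. With only the arrays compared, Gja3 was called lower in tooth germ (0.0132), and between the bodies Gja3 (0.82, 0.00447), Gje1 (0.50, 0.00886) and Mip (-0.57, 0.00424) were called. Without tooth-series body replicate 3 the body difference of Gja3 was also called (1.07, 0.0488).

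The 6 probe sets of Gja1 gave one direction in lens but not between series. At E12.5 all 6 were called lower than body, from -0.88 to -0.48, and all 6 fell between E10.5 and E12.5, from -1.503 to -0.75. Of these, 1438973_x_at lay near the floor, at 4.92 in E12.5 lens, 5.67 in E10.5 lens and 5.45 in the lens-series body. At E10.5 all 6 were above body and 3 were called, and at E11.5 all 6 were below and 2 were called. In tooth germ all 6 were above body and 4 were called, with 0.19 (adjusted p = 0.411) for 1415800_at and 0.42 (0.0502) for 1438973_x_at.

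Probe set 1415801_at of Gja1 read 9.28 ± 0.33 in E12.5 lens and 10.14 ± 0.22 in the lens-series body, but 5.91 ± 0.50 in tooth germ and 4.53 ± 0.16 in the tooth-series body. Between the bodies it gave -5.61, where the brightest probe set gave 0.51 and the mean over all 6 gave -0.66, so the direction of the body difference of Gja1 depends on the probe set. The control probe sets for the 3′ minus the 5′ end of Actb stood at 4.78 to 5.05 on tooth germ and 4.22 to 4.47 on tooth-series body arrays, against 0.21 to 0.48 over the lens series, and those of Gapdh at 2.82 to 4.08 against -0.10 to 0.05. Their part in the Gja1 difference was not tested, and levels across the 2 series are given as read.

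**Figure D4:**
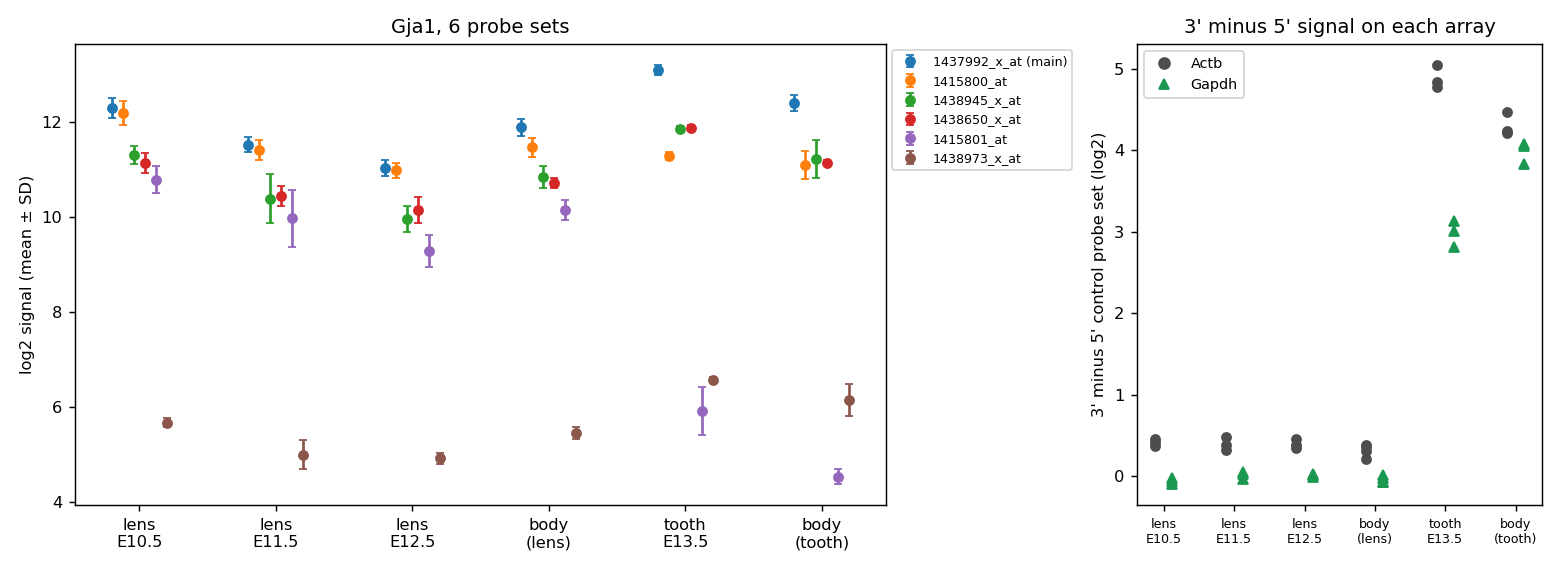
Log2 signal (y axis) of the 6 Gja1 probe sets by group on the left (points are group means, bars ± SD), and the 3′ minus 5′ control signal (log2) of Actb and Gapdh on each array on the right. All 6 probe sets are lower in E12.5 than in E10.5 lens, and 1415801_at reads 5.91 in tooth germ and 4.53 in its body, against 9.28 to 10.78 in lens.

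Of the other connexins tested, most were lower than body in E12.5 lens. Of 20 connexins listed, 14 have a probe set of their own here and 8 were tested. At E10.5 3 were higher than body (Gja1, Gja3 and Gje1) and 2 lower (Gjb2 and Gjb6), where 13.5% and 19.1% of all genes were. At E11.5 2 were higher (Gja3 and Gje1) and 4 lower (Gja1, Gjb2, Gjb6 and Gjc1), where 14.7% and 22.3% were. At E12.5 Gja3 and Gje1 were higher and 5 were lower, where 16.6% and 26.7% of all genes were, and Gja4 was not called (-0.22 ± 0.18). The lower ones were Gja1, Gjb2 (-3.20 ± 0.22, adjusted p = 4.58e-10), known from the inner ear and skin, Gjb6 (-1.63 ± 0.16, 6.03e-08), its partner there, Gjc1 (-1.68 ± 0.15, 1.48e-08), known from the heart and vessels, and Gjb5 (-0.73 ± 0.17, 0.00183), a connexin of skin and placenta. The median over the 8 was -0.79, and -0.05 over all genes. Within lens, Gjc1 fell with Gja1: it read 9.83, 9.25 and 8.47 by stage on average and changed by -1.36 ± 0.16 over the interval (3.85e-06).

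In tooth germ 2 of the 8 connexins were higher, Gja1 and Gjb5 (0.47 ± 0.18, adjusted p = 0.0465), and 3 were lower, Gjb2 (-1.72), Gjb6 (-0.93) and Gjc1 (-0.63), where 16.6% and 25.3% of all genes were. With arrays centred on their median or quantile-normalized, 1 connexin was called higher and 3 lower, and no called connexin changed sign. Panx1, a channel protein of the related pannexin family, was lower in E12.5 lens, at -0.72 ± 0.13 (0.000211).

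**Figure D5:**
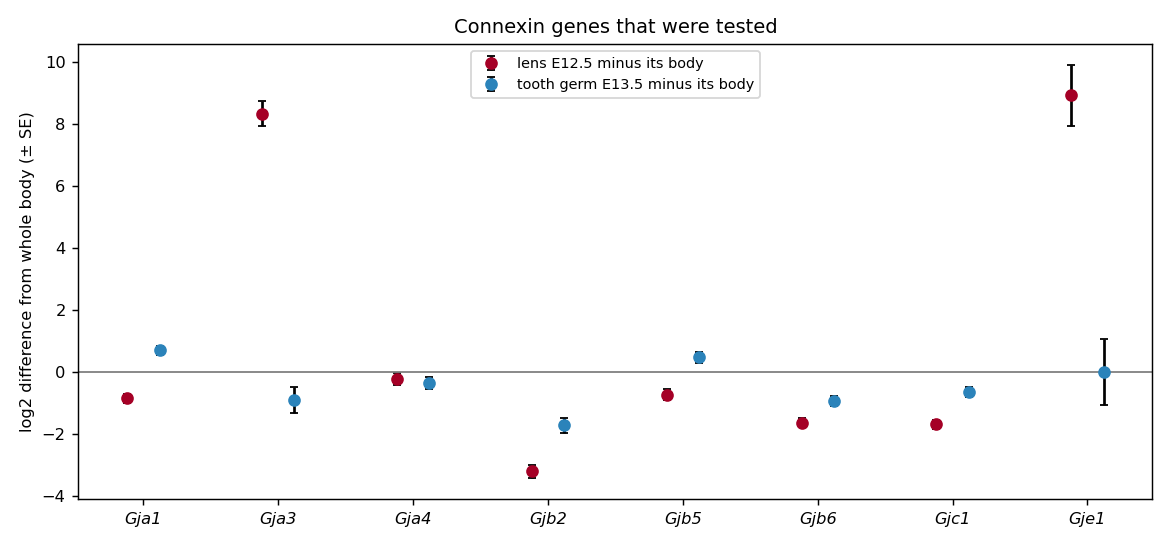
Difference from whole body (log2, y axis; points are fitted differences and bars ± SE) of the 8 connexins tested, in E12.5 lens and tooth germ. Gja3 and Gje1 stand apart at 8.33 and 8.91 in E12.5 lens, and the other connexins lie between -3.20 and -0.22 there.

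Of 12 aquaporins 7 were tested, and at E12.5 Mip was the 1 higher in lens and 2 were lower, where 16.6% and 26.7% of all genes were. Aqp1, the water channel of red cells and vessels, was lower, at -2.06 ± 0.16 (adjusted p = 2.44e-09), as was Aqp3, of basal epithelia, at -0.68 ± 0.14 (0.000672), while Aqp4, Aqp6, Aqp11 and Aqp12 lay between -0.11 and 0.08. In tooth germ Aqp3 (0.58 ± 0.15, 0.00472) and Aqp4 (0.47 ± 0.15, 0.0135) were higher, where 16.6% of all genes were.

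The relatives of Lim2 split in lens. Pmp22, the namesake of the family, was lower than body at E10.5 (-0.91), higher at E11.5 (1.04) and again higher at E12.5 (1.69 ± 0.30, adjusted p = 0.000125), and it rose by 2.60 ± 0.32 over the stages (8.43e-06). Emp1, Emp2 and Emp3, epithelial membrane proteins of the same family, were lower at E12.5, at -1.97, -1.44 and -2.03. In tooth germ Pmp22 was lower than body (-2.27 ± 0.32, 1.47e-05), Emp2 (1.59 ± 0.23, 1.65e-05) and Emp3 (1.14 ± 0.18, 6.15e-05) were higher, and Lim2 and Emp1 were not called.

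Other genes of the fibre membrane and its skeleton were also higher in E12.5 lens. Of 14 listed, 9 were tested: 6 were higher than body and 1 lower at E10.5 and at E11.5, and all 9 were higher at E12.5, with a median of 3.01 against -0.05 for all genes. Of all genes 13.5%, 14.7% and 16.6% were higher at these stages. Bfsp1 (4.73 ± 0.77, adjusted p = 5.14e-05) and Bfsp2 (4.51 ± 0.21, 2.53e-12) form the beaded filaments of fibres, Ezr (3.56 ± 0.14, 2.45e-13) ties membrane to actin, and Ank2 (3.42 ± 0.21, 1.41e-10) anchors membrane proteins. Tmod1, which caps actin filaments, was lower at E10.5 (-1.66) and higher at E12.5 (1.96 ± 0.22, 5.38e-07). Over the 2 days 7 of the 9 rose, and all 9 did without the 2 arrays that stand apart, where 8.91% of all genes rose in the fit over all arrays. In tooth germ none was called higher and 3 were lower, where 25.3% of all genes were lower.

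Of 8 tested partners of gap junctions, 2 were higher and 3 lower in E12.5 lens, where 16.6% and 26.7% of all genes were. Cdh1, the epithelial cadherin (2.98 ± 0.16, adjusted p = 2.33e-11), and Tjp1, a junction scaffold that binds connexins (0.88 ± 0.13, 1.84e-05), were higher. Cav1 (-2.45 ± 0.17), Ccn3 (-0.96 ± 0.18) and the kinase gene Csnk1d (-0.89 ± 0.18) were lower. The median was -0.18.

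All 8 lens transcription regulators listed were higher than body at both later stages, and 7 were at E10.5, led at E12.5 by Prox1 (5.26 ± 0.18, adjusted p = 1.95e-14), Sox1 (4.34 ± 0.28), Pitx3 (4.21 ± 0.17) and Foxe3 (4.08 ± 0.30). From the first stage to the last 13.5%, 14.7% and 16.6% of all genes were higher. Of these, 3 genes, Hsf4 (1.98), Sox1 (1.38) and Prox1 (1.03), also rose between E10.5 and E12.5, as 8.91% of all genes did. In tooth germ 4 were lower, where 25.3% of all genes were, and none was called higher.

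The sum of 8 surface ectoderm markers was lower at the later lens stages, as Gja1 was. It was 6317.9 to 8397.4 in E10.5, 2367.4 to 2725.6 in E11.5 and 1594.7 to 1749.1 in E12.5 lens, against 1915.0 to 2260.4 in body, and 10485.7 to 13662.8 in tooth germ against 2746.6 to 2979.3 in its body. Between E10.5 and E12.5 lens 6 of the 8 fell, where 13.2% of all genes did, and Krt5 (0.41) and Krt14 (0.53) were not called. Against body, 5 were higher and 3 lower at E10.5 (13.5% and 19.1% of all genes), 1 higher and 7 lower at E12.5 (16.6% and 26.7%), and 7 higher in tooth germ (16.6%).

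The sum of 9 mesenchyme markers was 4415.9 to 5306.1 in E10.5, 7098.4 to 7942.8 in E11.5 and 5399.2 to 6888.4 in E12.5 lens, against 22617.8 to 26013.2 in body. Between E10.5 and E12.5 lens 6 of the 9 rose and 2 fell, where 8.91% and 13.2% of all genes did. Among those that rose were the collagen genes Col1a2 (1.99) and Col3a1 (1.95) and the matrix proteoglycan genes Dcn (2.10) and Lum (1.26). The genes that fell were Twist1 (-1.34) and Pdgfra (-0.69), and Prrx1 (-0.30) was not called. The sum of 6 pigment epithelium markers was 328.2 to 411.4 in E10.5, 748.3 to 915.5 in E11.5 and 461.0 to 478.0 in E12.5 lens, against 201.4 to 233.1 in body, and 3 of the 6, Tyr, Tyrp1 and Mlana, did not pass the filter on low values. The part of these markers in the values of the members was not tested.

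The genes most like each member were those with the smallest root mean square difference of the 6 centred group means. For Gja3 they were Capn3 (0.22 log2), a calpain, Crybb3 (0.47) and Crybb1 (0.50). For Mip they were Cryba2 (0.36), Capn3 (0.46) and Crygd (0.56). For Gje1 they were Cryba4 (0.43), Cryba2 (0.63) and Mip itself (0.65), so crystallin genes stand near all 3. For Lim2 they were Sowaha (0.44), the galectin relative Grifin (0.49) and Pip5kl1 (0.58). For Gja1 they were Pold1 (0.11), the catalytic subunit of a DNA polymerase, Aspm (0.13), a spindle protein, and Notch2 (0.15), a receptor. This likeness rests on the brightest probe set of Gja1, and the order of Gja1 across the series turned with the probe set.

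Between members the nearest were Gja3 and Mip (0.64), Gje1 and Mip (0.65) and Gje1 and Lim2 (0.69), and the farthest of the fibre genes were Gja3 and Lim2 (1.11). Gja1 was 3.18 to 3.99 from the other members. These distances rest on 6 group means that share arrays, and they are descriptions.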

How the data were processed

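Total RNA of 19 samples was labelled as biotin cRNA and hybridised to 1 Affymetrix mouse array each. The values deposited by the authors are linear intensity values per probe set; per the submitters' processing notes they come from RMA, and version 0.7 of affy is listed with no role stated. Deposited intensity ran from 5.4 to 25043.5, with array medians of 42.5 to 46.5, and precision is limited by how few arrays there are. No 2 arrays shared more than 2.04% of values, and arrays of a group correlated at 0.9645 to 0.9946.

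Log2 was taken and no further normalization applied. The platform annotation ties 34945 of the 45101 probe sets to 1 gene and 932 to several. Symbols were updated by Entrez ID through RefSeq (GRCm38.p6), and all 5 members matched. Probe sets naming 1 gene gave 18194 genes, each represented by the brightest, and those above 44.1 (5.46 on log2) on at least 3 arrays were tested. limma 3.58.1 in R 4.3.3 fitted 6 group means over all 19 arrays with eBayes, and 10 contrasts were tested. The scripts were tested on simulated data. Alternatives changed the filter, the scaling, an offset before log2, the probe set, the variance model, the blocks and the arrays left out.

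Members, lists and tests were chosen with earlier results of these data known. Up to 4 called genes per list with the largest difference at E12.5, those that oppose their list, and the 3 nearest genes per member are named; others named were chosen after their values were seen. The labels do not say whether replicates are separate litters or pools, so p-values measure only the spread between arrays, which may be technical. Same-numbered arrays of E11.5 and E12.5 lens deviated together (correlations 0.61, 0.64 and 0.40), so the blocked value is given beside that comparison. The bacterial control sets describe hybridisation controls and were read from the arrays.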

Additional observations from a re-analysis of the deposited data

Results flagged for a closer look

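The difference from whole body in E12.5 lens was set against that in tooth germ for each member, and all 5 differed between the 2 tissues in limma's test of the difference itself. Gja3 stood out by 9.23, Gje1 by 8.92, Mip by 7.80 and Lim2 by 6.42, each higher in lens relative to its body. Gja1 stood at -1.55, lower than body in lens on all 3 arrays and higher than body in tooth germ on all 3. In tooth germ and the lens-series body Gja3, Gje1 and Mip read at or near background, so these sizes depend on the floor: with 32 added to the linear values they were 7.06, 6.46 and 6.77. These genes passed the filter on lens arrays only, so their differences here are descriptions. With its second probe set Gja3 stood at 6.12. The tissues come from different stages and series, and these cannot be told apart. By the gap to the nearest array over the range of the group, no array of the 4 lens-series whole-body replicates was an outlier for any member. The groups of 3 arrays were not checked in this way.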

How the results depend on the processing

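Of the values of single members recomputed under other settings, 880 kept their direction and side of the threshold, 47 lost and 40 gained the call, and 33 changed sign. This tally includes the fits within a control set. The calls of all 5 members at E12.5 against body, and of the lens against the tooth difference, held throughout. For Gja3, Gje1 and Mip, which entered the test through lens arrays alone, these calls are descriptions. The count of members called in the first lens step (2) was 1 with no filter, with median-centred arrays, with a trend and robust variance and with the replicate block, 0 with only the arrays compared and in the low control set, 4 in the high control set, 5 without both arrays that stand apart, and 1 to 5 leaving out one array at a time. In the second lens step (1) it was 4 with 32 added, 2 with the trend and robust variance, 2 with the mean of all probe sets, 2 with the replicate block, 5 with the control set as a block, 4 in either control set, 4 without both arrays, and 1 to 3 leaving out one array. For the second step against the first (0) it was 2 in either control set and 2 without both arrays. Counts within a set rest on lone arrays, at E11.5 and E12.5 in the high set and at E10.5 in the low set. With only the arrays compared it was 2 for tooth germ (1) and 4 between bodies (1), and the count between bodies was 1 to 2 leaving out one array. The cause was not tested. For these settings the share of all genes called is not given, so the counts are descriptions.

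Sign changes were mostly of values not called. In the low control set the first step was -0.38 for Mip and -0.74 for Lim2. Between bodies, Gja1 was -0.66 with the mean of probe sets, -0.37 with 1415800_at and -5.61 with 1415801_at, Gja3 -0.35 with 1422339_at, Mip 0.11 with the mean and 0.79 with 1435447_at, and Lim2 0.082 after quantile normalization, 0.014 with the replicate block and -0.14 to 0.014 leaving out one array. For tooth germ, Gje1 was 0.0011 with 32 added and -0.19 to 0.11 leaving out one array (above 0 at 0.053, 0.079 and 0.11). For the second step against the first, Gja1 was -0.069 in the low set. Gja3 was 0.064 with the set block, 0.30 in the high and 0.60 in the low set, -1.62 without both arrays, and -0.91 to 0.29 leaving out one (above 0 at 0.25, 0.047, 0.29 and 0.0027). Gje1 was -1.48 to 3.43 leaving out one array (below 0 at -0.20 and -1.48) and -3.12 without both. Lim2 was 0.045 with 32 added, 0.41 with the set block, 2.47 in the low set, -2.30 without both arrays, and -1.61 to 0.84 leaving out one (above 0 at 0.60, 0.80, 0.84 and 0.072).

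Replicate numbers paired all arrays of E11.5 and E12.5 lens, replicate 3 narrowly (0.40, against 0.35 with another number). Replicate 1 is the only high-set array at both stages, so its pairing cannot be told apart from the control set. Between other groups the correlations of same-numbered deviations ran from -0.53 to 0.58, the highest for replicate 1 of E10.5 and E11.5 lens. With the replicate block the call of Gja1 at E10.5 against body (0.34, adjusted p = 0.114) and of Gja3 in the first step (1.5025, 0.06) was lost. Requiring 10 arrays above the filter keeps Gja1 and Lim2 alone, so it gives no count. Signals at background limit the folds of Gja3, Gje1 and Mip against body: with 32 added the E12.5 differences were 6.70, 6.46 and 6.87.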
